A study of Mus musculus with 10 samples.

Results

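Mouse testes and sperm were examined for 10 genes of the meiotic chromosome axis and of meiotic recombination: Sycp1, Sycp2, Sycp3 and Syce1 of the synaptonemal complex, the cohesin genes Smc1b, Rec8 and Stag3, the axis gene Hormad1, and Spo11 and Dmc1, which make and repair the meiotic DNA break. They were chosen by symbol among the known mRNAs, and the expected counts (estimated read counts) and FPKM (a level scaled to transcript length and library depth) of a gene's transcripts were summed. Of the 10 genes, 9 were listed in at least 1 library, among 16082 known mRNA genes listed in the series. Dmc1 was listed in none.

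The labels give the mice of the 10 libraries as C57BL/6 of 3 to 5 months, and the study's methods give the control mice as C57BL/6J of a younger range of ages. Control mice had received saline, and cadmium mice 1 intraperitoneal dose of cadmium chloride at 3 mg/kg, with tissue taken at day 35 in both. There were 4 libraries of control sperm, 2 of control testes, 2 of cadmium sperm and 2 of cadmium testes. Sperm were pooled from several mice and treated with a lysis buffer against somatic cells, and the testes libraries were made from pieces of testis tissue, which holds somatic cells beside germ cells.

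In the first meiotic prophase, cohesin rings built on Smc1b, Rec8 and Stag3 hold sister chromatids together and carry an axis to which Sycp2, Sycp3 and Hormad1 bind. Spo11 cuts the DNA, Dmc1 pairs the broken end with the homologous chromosome, and the transverse filament Sycp1, with central element proteins such as Syce1, joins both axes along their length. These proteins act in spermatocytes, which later divide into spermatids and then sperm, in which transcription has largely stopped. In somatic cells, the repressor E2F6 is known to keep Stag3 and Smc1b silent, and E2F and E-box letters lie near the start of several meiotic genes.

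Promoter stretches of 5 of the genes are shown because they hold an E-box (CACGTG) or an E2F motif (TTCCCGC, or GCGGGAA on the other strand), which are in capitals. Each runs 5′ to 3′ on the gene's strand, upstream of the start site that RefSeq gives on GRCm38.p6. They are chr3:102936161-102936220 on the minus strand for Sycp1, chr10:88459427-88459556 on the plus strand for Sycp3, chr15:85131978-85132037 on the minus strand for Smc1b, chr5:138280309-138280368 on the plus strand for Stag3 and chr3:95559567-95559676 on the plus strand for Hormad1. The Stag3 start site used here is an internal one, inside the gene's span of chr5:138272514-138312397, so its stretch lies within that span.
Sycp1: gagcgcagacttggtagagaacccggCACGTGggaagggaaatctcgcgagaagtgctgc
Sycp3: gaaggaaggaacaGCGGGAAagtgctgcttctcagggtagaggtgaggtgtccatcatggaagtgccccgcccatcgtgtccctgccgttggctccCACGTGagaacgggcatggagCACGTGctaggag
Smc1b: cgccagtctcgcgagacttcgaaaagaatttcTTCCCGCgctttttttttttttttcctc
Stag3: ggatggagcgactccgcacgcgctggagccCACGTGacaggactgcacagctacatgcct
Hormad1: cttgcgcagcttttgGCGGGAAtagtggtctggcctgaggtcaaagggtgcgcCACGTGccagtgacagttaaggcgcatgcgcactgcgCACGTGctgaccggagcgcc

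Over windows from 250 bases before to 50 after the start, searched on both strands, the E-box was found in 4 of the 9 genes with a promoter in the table (Sycp1, Sycp3, Stag3 and Hormad1), against 7.15% of 32851 mouse promoters. The E2F motif was found in 4 of 9 (Sycp3, Smc1b, Stag3 and Hormad1), against 4.60% of promoters. The palindromic NRF1 motif was found in Syce1 and Hormad1, against 0.971% of promoters, and the loose MYB motif AACNGNC in 5 of 9, against 32.8%. The CRE motif TGACGTCA and the RFX motif were found in 0 of 9 windows. The E2F match of Stag3 begins 3 bases before its start site and lies outside the stretch shown. No searched motif overlapped another in the stretches printed. These windows held 54.7 to 69.0% G and C against a median of 52.7% over all genes, and how far base composition accounts for the matches was not tested.

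The control sperm libraries held 366455 to 1058017 expected counts, the cadmium sperm libraries 1155491 and 1254477, the control testes libraries 2866856 and 2606086, and the cadmium testes libraries 2845417 and 2709568. Known mRNAs took 9.14 to 13.6% of these counts. No member reached more than 14 counts in a library, so every value below rests on few reads, and a count of 0 allows up to 3 counts, or 1.05 to 8.19 CPM across the libraries (counts scaled to a library total of 1000000). Poisson and binomial intervals cover counting error only. In these bulk samples, fewer cells of a type and less RNA per cell cannot be told apart.

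Among the synaptonemal complex genes in testes, Sycp3, which builds the lateral element together with Sycp2, had the highest mean level per length. In control testes 1 it lay below Sycp1 and Syce1, and in cadmium testes 1 below Syce1. Sycp3 (chr10:88459587-88473236) stood at 0.97 and 4.65 FPKM in control testes 1 and 2 and at 0.98 and 2.75 FPKM in cadmium testes 1 and 2. Its mean over the 4 testes libraries was 2.34 ± 1.75 FPKM (SD, n = 4). The replicates lay further apart than the groups did, since 3 counts stood behind the lower value and 13 behind the higher in control testes.

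Sycp1, the transverse filament (chr3:102818499-102936100), stood at 1.13 and 1.47 FPKM in control testes and 0.72 and 0.76 FPKM in cadmium testes. Sycp2, the partner of Sycp3 (chr2:178345295-178407776), stood at 0.62 and 0.34 FPKM in control testes and 0.25 and 0.20 FPKM in cadmium testes. Both genes had the cadmium values below the control values, with no overlap. Syce1, of the central element (chr7:140777229-140787854), stood at 0.98 and 1.63 FPKM in control testes and 1.73 and 0.78 FPKM in cadmium testes, so that the groups overlapped.

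The meiotic cohesin genes lay in the same range. Smc1b, the meiotic form of the SMC1 subunit (chr15:85064689-85131957), stood at 0.96 and 1.34 FPKM in control testes and 0.44 and 1.29 FPKM in cadmium testes. Stag3, the meiotic STAG subunit (chr5:138272514-138312397), stood at 1.00 and 0.73 FPKM in control testes and 0.75 and 0.79 FPKM in cadmium testes, the least spread of the 9 listed genes over the 4 testes libraries (SD 0.12). Rec8, the meiotic kleisin that closes the ring (chr14:55618002-55625395), stood at 0.69 and 0.19 FPKM in control testes and 0.52 and 0.37 FPKM in cadmium testes. For all 3 genes the groups overlapped.

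The axis gene Hormad1 and the break gene Spo11 were at the edge of detection. Hormad1, which marks unsynapsed axes (chr3:95559677-95587863), stood at 0.65 and 0 FPKM in control testes and 0 and 0.69 FPKM in cadmium testes, with 3 counts behind each value above 0. Spo11, the enzyme that makes the break (chr2:172977379-172993576), stood at 0.90 and 0 FPKM in control testes and 0.45 and 0.48 FPKM in cadmium testes. Dmc1, the meiotic strand exchange protein (chr15:79561497-79605159), was listed in neither group, and 0 counts over both control testes libraries allow up to 0.548 CPM.

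**Figure D1:**
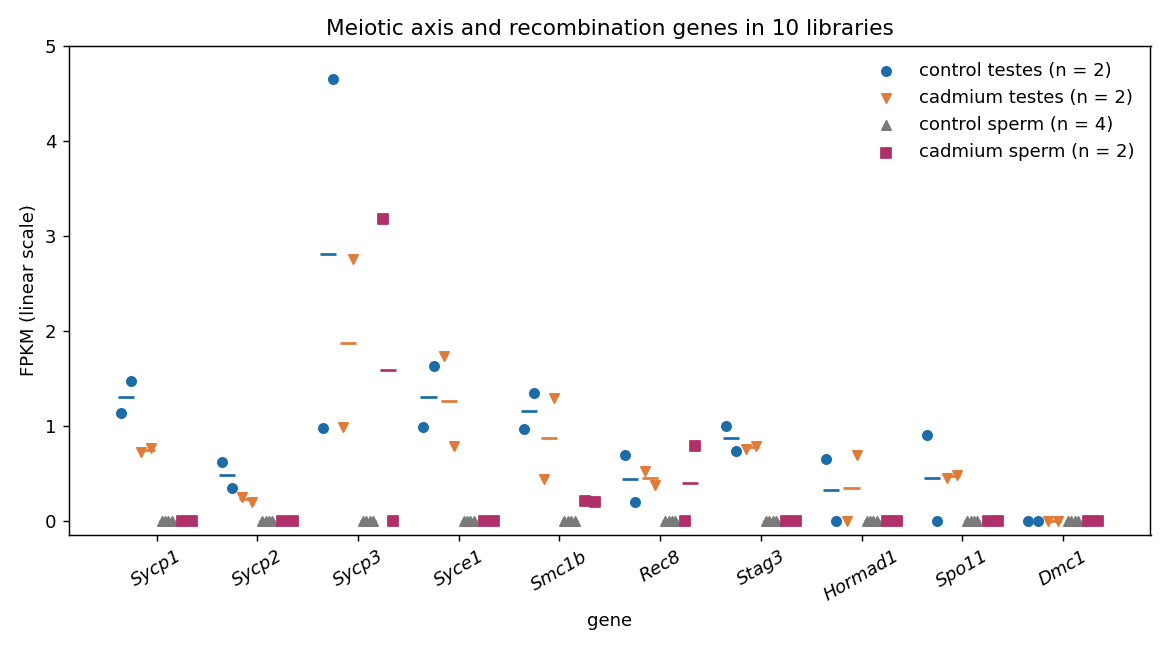
FPKM of each gene (linear axis) in every library of the 4 groups, with a short line at each group mean. Points of 9 genes lie above 0 in testes, with Sycp3 at 4.65 FPKM as the highest, while all 4 control sperm pools lie at 0 for every gene.

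Ordered by the mean level over the 4 testes libraries, Sycp3 was followed by Syce1 (1.28 FPKM), Sycp1 (1.02 FPKM), Smc1b (1.01 FPKM), Stag3 (0.82 FPKM), Spo11 (0.46 FPKM), Rec8 (0.44 FPKM), Sycp2 (0.35 FPKM) and Hormad1 (0.34 FPKM). Each of these genes overlapped its neighbours in that order. Sycp1 and Stag3 lay above Rec8, Sycp2 and Hormad1 in every testes library, since their lowest values were 0.72 and 0.73 FPKM and the highest values of the other three genes were 0.69, 0.62 and 0.69 FPKM. Against all 13907 known mRNA genes listed in control testes, with a median of 0.505 FPKM, Sycp3 stood above 83.5% of genes, Syce1 above 70.9%, Sycp1 above 70.8%, Smc1b above 68.4% and Stag3 above 62.3%. Hormad1 stood above 39.1%.

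Cohesin subunits have forms used in every dividing cell, which allowed a comparison within the testes libraries. Smc1b stood above Smc1a in 4 of 4 testes libraries, with means of 1.15 and 0.095 FPKM in control testes, a ratio of 12.1 that rests on 25 counts against 2. Stag3 stood above Stag1 and above Stag2 in 4 of 4 testes libraries, with 0.865 FPKM in control testes against 0.24 and 0.06 FPKM. The ratios were 3.60 and 14.4 in control testes, the second resting on 20 counts against 2, and 8.56 and 8.11 in cadmium testes. Rec8 showed no such order against Rad21, the mitotic kleisin, since it was higher in 2 of 4 libraries and the means in control testes were 0.44 and 0.465 FPKM. Smc3, the ring partner common to both forms of cohesin, stood at 0.22 and 0.24 FPKM in control testes, and at 0.15 and 0.08 FPKM in cadmium testes.

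**Figure D2:**
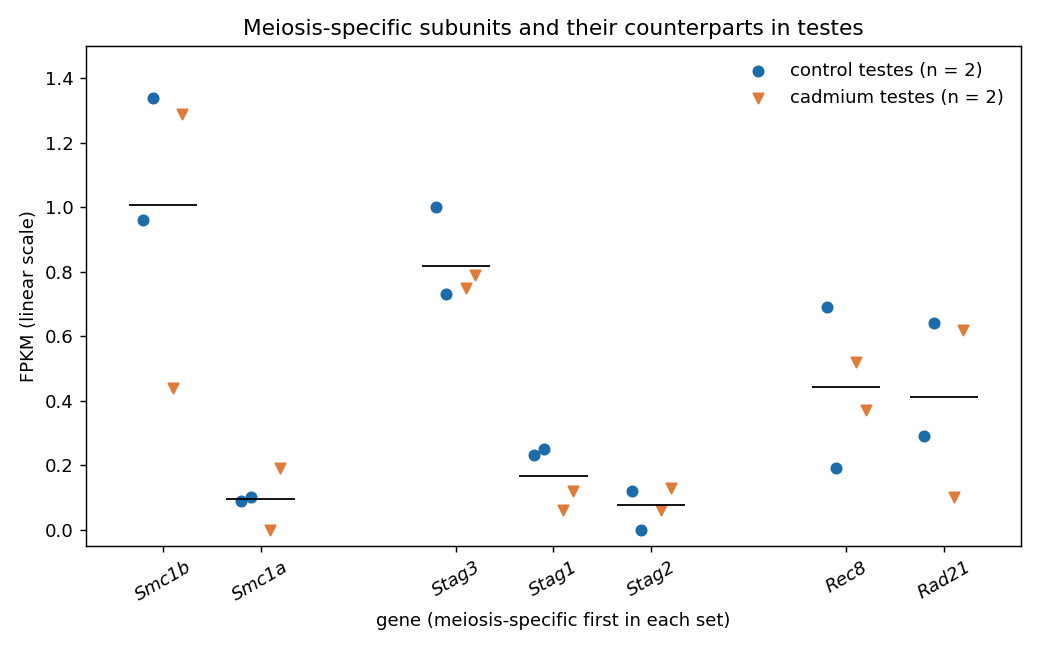
FPKM (linear axis) of meiosis-specific genes and their counterparts in the 2 control and 2 cadmium testes libraries, with a line at the mean over all 4. Smc1b and Stag3 lie above their counterparts in every library, while Rec8 and Rad21 overlap.

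The first comparison asked which of these transcripts are carried into mature sperm of control mice. All 4 control sperm pools stood at 0 counts for all 10 genes. The 2 control testes libraries held 62 and 60 counts of the genes together. At the share these genes took in control testes, the 4 pools would have held 52.5 counts, and the deepest pool, sperm 2, 23.6. Their summed level was thus at least 17.5-fold lower in sperm, taking 3 counts over the 4 pools as the limit, and at least 14.4-fold lower over pools 2 to 4. The testes counts were taken as exact in both limits.

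Being listed in no control sperm pool was common at this depth. It held for 9 of the 9 genes listed in testes, and for 51.6% of the 6966 known mRNA genes with as many counts in control testes as these genes (3 to 25). Values that did not overlap, with every pool of sperm 2 to 4 below both testes libraries, were found for 7 of 10 genes, against 42.3% of known mRNA genes listed in control testes. Hormad1 and Spo11 were not among the 7, since each stood at 0 in control testes 2.

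Taken gene by gene against pools 2 to 4, with 3 counts as the limit in sperm, the level was at least 2.94-fold lower in sperm for Smc1b. The same limit was 2.83-fold for Sycp1, 2.35-fold for Stag3, 1.88-fold for Sycp3, 1.77-fold for Sycp2 and 1.18-fold for Syce1. These limits take the testes counts as exact and leave out their counting error. The limits of Sycp2 and Syce1, from 15 and 10 testes counts, therefore do not establish a difference. For Rec8, Hormad1 and Spo11, which had 5, 3 and 4 counts in control testes, a difference was not detectable at this depth.

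**Figure D3:**
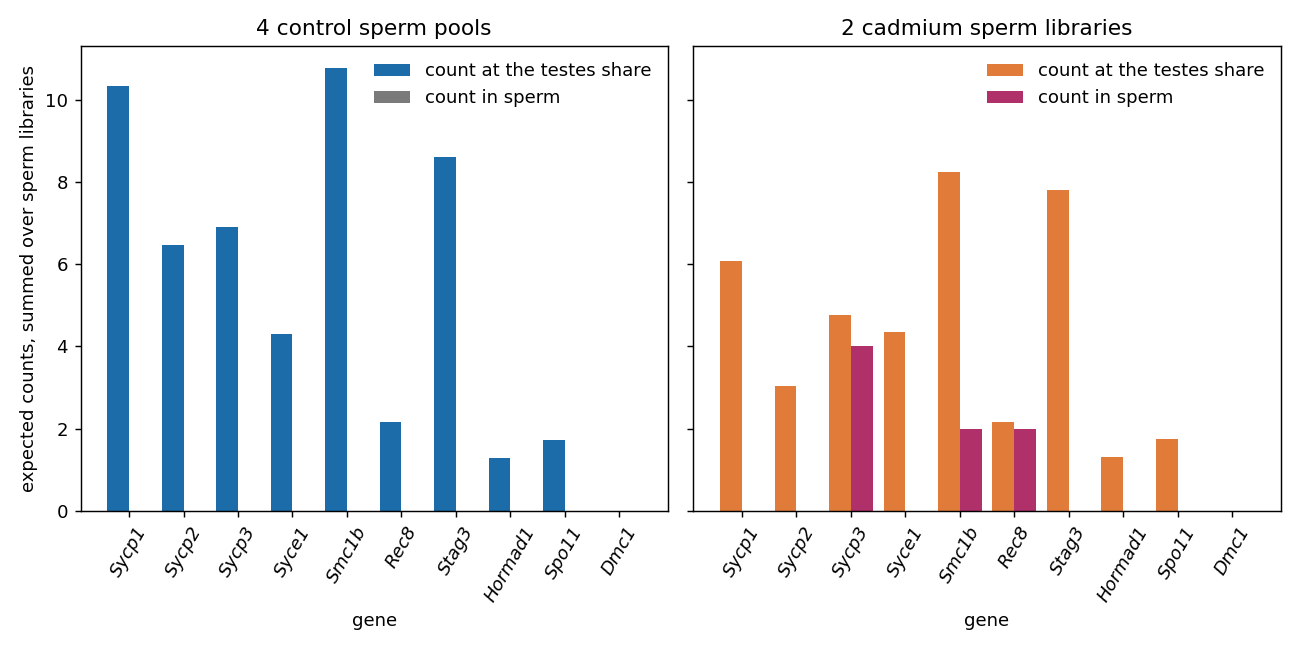
Expected counts of each gene summed over the 4 control sperm pools (left) and the 2 cadmium sperm libraries (right), beside the count that the share in testes of the same treatment would give at the same depth; both axes start at 0. Control sperm held 0 counts where the testes share gives up to 10.8 (Smc1b), and cadmium sperm held counts of Sycp3, Smc1b and Rec8.

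The quasi-likelihood test of edgeR was run across all genes with at least 1 FPKM in at least 2 libraries of the comparison, and genes were called where p, adjusted by Benjamini and Hochberg, was under 0.05 with a change over 2-fold. Between control sperm 2 to 4 and control testes, 1034 of 24432 genes were higher in sperm (4.23%) and 4379 lower (17.9%), and with library totals in place of TMM scaling 1065 were higher and 1669 lower. Calls over all genes fell from 5413 to 2549 without sperm 2, to 968 without sperm 4, and to 1027 and 880 without testes 1 and testes 2. Only Sycp1 of the 10 genes passed the filter, which it did through the testes libraries alone. Its call as lower in sperm (adjusted p = 0.0461) is thus in part fixed by the filter. The call was lost with library totals (adjusted p = 0.0502), without any of sperm 2, 3 or 4 (adjusted p = 0.0618, 0.0905 and 0.174) and without a filter (0.147). Without a filter, 9 of the genes were tested and 0 were called, against 1.56% of all genes called lower, and 6 of the 9 had an unadjusted p under 0.05, against 17.9% of all 59410 genes. With a minimum of 10 counts in 2 libraries in place of the FPKM filter, Sycp1 and Smc1b were tested, again through the control testes libraries alone, and both were called lower, against 18.1% of 14114 genes.

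A tissue effect fitted over control and cadmium mice together, added after the data had been seen, gave more of the genes a test. Without a filter, 5 of 9 genes were lower in sperm, against 10.5% of 68976 genes: Sycp1 (edgeR adjusted p = 0.0028), Stag3 (0.0030), Sycp2 (0.0156), Syce1 (0.0186) and Smc1b (0.0304). Sycp3 (adjusted p = 0.267), Spo11 (0.235), Hormad1 (0.352) and Rec8 (0.643) did not pass. Summed over all libraries, Sycp1 and Stag3 each had 38 counts in testes and 0 in the 6 sperm libraries, at least 5.48-fold lower, and Smc1b had 44 against 2, a ratio of 9.51 with a 95% interval from 2.48 to 81.0.

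In the same contrast, the summed levels of some marker lists were lower in sperm and those of others overlapped. Spermatocyte markers, a list of 7, took 232 to 262 CPM in control testes and 37.7 to 110 in control sperm, where 3 of 7 were listed and Piwil1, Pgk2, Mybl1 and Ccna1 were at 0. In the edgeR test, 2 of the 4 tested were lower, Pgk2 and Ldhc, and 0 were higher. Ovol1 held 1032 of the 1347.57 spermatocyte counts in control testes and 197 of 214 in control sperm. Spermatid markers, a list of 10, took 248 to 303 CPM in testes and 144 to 352 in sperm, with 1 of 10 higher, Tssk6 (log2 fold change 2.88 ± 0.99, SE), and 4 lower, of which Tnp1 stood at -5.21 ± 1.53 (SE). Prm2 and Tssk6 held 372 and 143 of the 557 spermatid counts in control sperm, where Tnp1, Acrv1, Akap4 and Gapdhs had 1 or 2 each. The spermatid sum therefore does not stand for its list as a whole. Spermatogonial markers took 89.8 to 122 CPM in control testes and 9.45 to 30.6 in control sperm, with 2 of 2 tested lower, Gfra1 and Nanos3. Gfra1 held 550 of the 576.56 spermatogonial counts in control testes, and Sohlh1 had 4 counts there and 14 in control sperm. Sertoli markers took 36.3 to 47.4 CPM in control testes and 0 to 9.45 in control sperm (1 of 1 lower, Dhh), and leukocyte markers 3.07 to 5.93 and 0 to 2.84 (1 of 1 lower, Lyz2). Leydig markers overlapped, with 64.5 to 65.2 CPM in control testes and 0 to 109 in control sperm (1 of 2 lower, Insl3), and their level over the sperm pools was 26.7 CPM with and 11.6 without sperm 3. Epididymal markers took 0.349 to 6.91 CPM in control testes and 0 to 9.84 in control sperm, with 0 of 2 called. Stra8 and Wt1, listed in both control testes libraries, were at 0 in all control sperm pools. So were Nanos3, Pgk2, Insl3, Lyz2 and the spermatid markers Spaca1 and Odf1. These passed the filter through the testes libraries alone, and their calls as lower are in part fixed by it. Without a filter, edgeR called 1 of 6 spermatogonial markers lower, against 1.56% of all genes. It then called 0 of the 7 spermatocyte and 0 of the 10 spermatid markers, and 0 of the Sertoli, Leydig and leukocyte markers. The part that the mix of cells has in the levels of the meiotic genes was not tested.

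A further 35 meiotic genes were set beside the members, of which 26 were listed in control testes and 11 in control sperm. Between control sperm and testes, 8 were tested, 1 was lower and 0 were higher. The lower gene was Cntd1, needed for crossover formation (log2 fold change -2.64 ± 0.74, SE, edgeR adjusted p = 0.0111), with 942 counts in control testes and 118 over the 4 sperm pools. It overlaps Becn1. Syce2, which sits with Syce1 in the central element and is named here after its values were seen, had 18 counts in control testes and 18 over the 4 control sperm pools, whereas Syce1 had 10 and 0. Of the 18 counts of Syce2, 16 were in sperm 2 to 4 (log2 fold change 1.25 ± 1.57, SE, edgeR adjusted p = 0.596). It overlaps Gcdh. The median log2 fold change was -0.75 over the 8 tested genes and -1.24 over all genes tested. Without a filter the order turned, with -2.36 over 26 of the further meiotic genes and -1.72 over all genes.

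The mitotic cohesin genes had few counts in both control sperm and control testes. Smc1a, Rad21, Stag1 and Stag2 were listed in no pool, and Smc3 had 3 counts in sperm 2. None of the 5 passed the filter, and without a filter 0 of 5 were called between control sperm and testes. Absence from every control sperm pool was thus found for 4 of these 5 genes as well as for the meiotic genes. In control testes, Smc1a and Stag2 had 2 counts each, Stag1 7.87 and Rad21 9. At this depth, their absence from sperm does not establish a lower level. Smc3 was not lower, at 1.27 CPM over the control sperm pools and 1.10 in control testes. Of known mRNA genes with 3 to 25 counts in control testes, 51.6% were listed in no control sperm pool.

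The second comparison asked whether the testes of cadmium mice differed from control testes. The 9 listed genes together held 62 and 60 counts in the control libraries, against 40 and 51 in the cadmium libraries, and both cadmium values were lower. The ratio of the summed levels was 1.36, with a counting interval of 95% from 1.03 to 1.81 that leaves out the spread between libraries. Of the 26724 genes tested with edgeR, 5 were higher in cadmium testes (0.0187%) and 1 lower (0.00374%). Of the 10 genes, 4 were tested and 0 were called, with 0 at an unadjusted p under 0.05 and 0 called by DESeq2.

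Sycp1 had a log2 fold change of -0.74 ± 0.72 (SE), Sycp3 of -0.54 ± 0.94, Smc1b of -0.31 ± 0.76 and Syce1 of -0.03 ± 0.94, all with an edgeR adjusted p of 1.00. Their median was -0.42, against 0.02 over all genes tested. Sycp1 passed the filter through the control testes alone, so that its fall is in part fixed by the filter. Without a filter the median was -0.05 over the 9 listed genes, against 0.05 over all genes. The direction turned without cadmium testes 1 for Sycp3 (0.11) and Smc1b (0.34), and without cadmium testes 2 for Syce1 (0.28).

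Sycp1 and Sycp2, 2 of the 10 genes, had both cadmium testes below both control testes, which held for 11.2% of 15473 known mRNA genes listed in testes, and 0 of 10 had both above, against 9.33%. Over both libraries of a group, Sycp1 had 24 counts in control and 14 in cadmium testes, a ratio of 1.74 with a 95% interval from 0.864 to 3.64. Sycp2 had 15 and 7 counts, a ratio of 2.17 from 0.835 to 6.31. Gene by gene, the intervals of all 9 listed genes included no difference, and for Stag3, with 20 and 18 counts, the interval ran from 0.566 to 2.26. For Rec8, Hormad1 and Spo11 the counts were 5 and 5, 3 and 3, and 4 and 4. Smc1b (25 and 19) and Sycp3 (16 and 11) had fewer counts in cadmium testes and Syce1 had 10 in each.

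**Figure D4:**
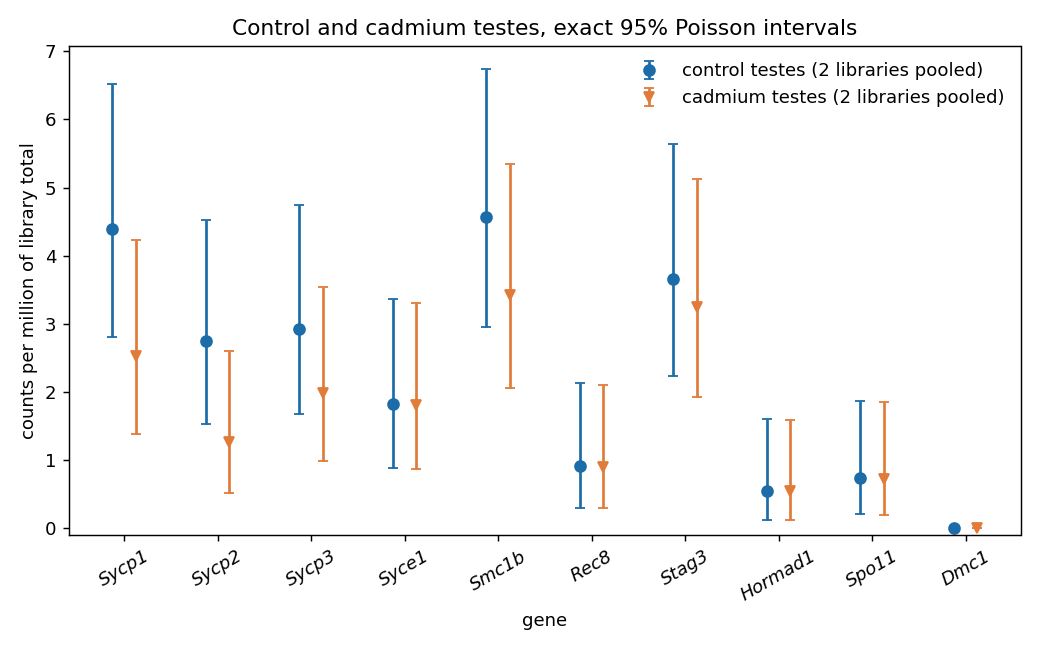
CPM of each gene over the 2 control and the 2 cadmium testes libraries, with exact 95% Poisson intervals; genes at 0 have no bar. The intervals of both groups overlap for every listed gene, with the widest gap between the points of Sycp1 (4.39 and 2.52 CPM).

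The 35 further meiotic genes took 206 to 272 CPM in control testes and 192 to 250 in cadmium testes. Cntd1 alone held 942 of their 1299.53 counts in control testes and 917 of 1223.88 in cadmium testes. The sum therefore does not stand for the list as a whole. Of the 35 genes, 8 were tested and 0 were called, and 0 of the genes of any marker list were called. Spermatocyte markers took 232 to 262 CPM in control testes and 206 to 220 in cadmium testes, so the sums did not overlap. Of that list, Ovol1 went from 1032 to 866 counts, while Ldhc went from 147 to 160 and Pgk2 from 25 to 34, and the median log2 fold change of the 4 tested was 0.04. Spermatid markers took 248 to 303 and 291 to 300, Sertoli markers 36.3 to 47.4 and 41.8 to 43.9. Whether the meiotic genes moved with the share of spermatocytes was not tested.

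The third comparison set cadmium sperm beside control sperm. The 2 cadmium sperm libraries held 5 and 3 counts of the 10 genes, where the 4 control pools held 0. Sycp3 had 4 counts in cadmium sperm 1 (3.18 FPKM) and 0 in cadmium sperm 2, Rec8 had 0 and 2 counts (0.79 FPKM in the second), and Smc1b had 1 count in each (0.21 and 0.20 FPKM). Smc1b was thus the only gene of the 10 listed in both. Sycp1, Sycp2, Syce1, Stag3, Hormad1, Spo11 and Dmc1 stood at 0.

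The summed level in cadmium sperm was at least 2.14-fold higher than over control sperm 2 to 4, with 3 counts over those pools as the limit. That value leaves out the counting error of the 8 counts in cadmium sperm. Higher levels in cadmium sperm were also common over all genes. Without a filter, the median log2 fold change was 0.73 over all 42731 genes and 0.89 over known mRNA genes. Of known mRNA genes with as many counts in control testes as the members, 51.6% were listed in no control sperm pool. In neither cadmium sperm library were 35.7% of them listed. At the cadmium share, control sperm 2 would have held 3.51 counts and the other 3 pools 1.22 to 1.69 each. None of the genes passed the filter. Without a filter, Sycp3, Smc1b and Rec8 were tested with edgeR and 0 were called, with 0 at an unadjusted p under 0.05, while 13 of 42731 genes were called higher (0.0304%) and 8 lower (0.0187%). Leukocyte markers took 7.47 CPM in cadmium sperm, with 5 of 6 listed, and 1.27 in control sperm, with 2 of 6 listed. Epididymal markers took 5.81 and 2.97 CPM, with 14 counts in cadmium sperm and 7 in control sperm. Of the 14, Crisp1 had 8 and the epithelial gene Cdh1 4, each in both libraries, and both genes were at 0 in control sperm. The 7 counts of control sperm all lay in Adam7, Spink8 and Defb15, and Defb15 was at 0 in cadmium sperm. Spermatocyte markers took 104 CPM in cadmium sperm and 90.8 in control sperm, of which Ovol1 alone took 94.2 and 83.6 CPM. Spermatogonial markers took 19.9 and 15.3 CPM, and their main genes went opposite ways. Sohlh1 took 14.1 CPM in cadmium and 5.94 in control sperm, and Gfra1 3.32 and 9.33. These sums therefore do not stand for their lists as a whole. Stra8 and Piwil1 were at 0 in both groups. The part of such cells in the 8 counts was not tested.

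Cadmium sperm against cadmium testes gave the tissue contrast in libraries that the control contrast does not use. The genes together had 91 counts in cadmium testes and 8 in cadmium sperm, where the testes share would give 39.5, a ratio of 4.93 with a 95% interval from 2.40 to 11.8. Both sperm values lay below both testes values for 6 of 10 genes, Sycp1, Sycp2, Syce1, Smc1b, Stag3 and Spo11, against 36.7% of the known mRNA genes listed in cadmium testes. Of the 9 listed genes, 6 were found in neither cadmium sperm library, which held for 35.7% of known mRNA genes of like counts.

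With 3 counts as the limit in sperm, Stag3 was at least 2.60-fold lower in cadmium sperm (18 counts in testes and 0 in sperm) and Sycp1 at least 2.02-fold. The same limit was 1.45-fold for Syce1 and 1.01-fold for Sycp2, from 10 and 7 testes counts. These limits leave out the counting error of the testes counts, so those of Syce1 and Sycp2 do not establish a difference. Smc1b had 19 and 2 counts, a ratio of 4.12 with an interval from 0.994 to 36.5. Sycp3, with 11 and 4 counts, and Rec8, with 5 and 2, gave ratios of 1.19 (0.354 to 5.14) and 1.08 (0.178 to 11.4). The intervals for Sycp3 and Rec8 include no difference and also differences over 5-fold.

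In the edgeR test, 4166 of 25780 genes were higher in cadmium sperm (16.2%) and 3981 lower (15.4%). Without cadmium testes 1, 0 of 19751 genes were called by edgeR, with 5290 at an unadjusted p under 0.05, and without cadmium testes 2, cadmium sperm 1 or cadmium sperm 2 the 8147 calls fell to 3685, 4805 and 5255. Sycp3 alone passed the filter (log2 fold change -0.11 ± 1.15, SE, adjusted p = 0.961), and without cadmium sperm 2 its direction turned (0.90). Without a filter 9 genes were tested, 0 were called (6.44% of all genes were lower) and 3 had an unadjusted p under 0.05 (21.3% of all genes), with adjusted p = 0.0532 for Stag3, 0.0984 for Sycp1 and 0.219 for Syce1. Of the 35 further meiotic genes, 5 were tested and 2 were lower, Cntd1 (log2 fold change -1.84 ± 0.56, SE) and Ccdc36, which is needed for break formation (-2.64 ± 1.01, SE), with edgeR adjusted p = 0.0054 and 0.0311.

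The difference of the cadmium effect between sperm and testes was tested as an interaction over 9 libraries. Of the genes, 4 passed the filter, Sycp1, Sycp3, Syce1 and Smc1b, and 0 were called, with 0 at an unadjusted p under 0.05, against 10 of 32814 genes called lower (0.0305%) and 3 higher (0.00914%). The smallest unadjusted p was that of Sycp3 (0.0897, adjusted p = 1.00), the gene with 4 counts in cadmium sperm and 0 in control sperm.

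The genes whose profile over the 10 libraries was most like the median profile of the 10 were sought among 6681 known mRNA genes, by the root mean square difference of log2(FPKM + 1). They were Prnd (0.109), Prss58 (0.125), A430005L14Rik (0.127), Tmem56 (0.130) and Mrpl24 (0.155). All 5 stood at 0 in the 6 sperm libraries, which the search favours, since the median profile was at 0 there. Prss58, A430005L14Rik and Mrpl24 rest on 8, 8 and 9 counts over the 4 testes libraries. Prnd, which is known as a testis gene of the prion family, had 27 counts over the 4 testes libraries, between 0.56 and 1.10 FPKM.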

How the data were processed

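The authors filtered reads from strand-specific, rRNA-depleted libraries and deposited, for each sample, expected counts and FPKM per transcript. The deposited expected counts are raw estimates, and the deposited FPKM allow for transcript length and depth. The paper names SOAPaligner/SOAP2 and the submitters' processing notes name HISAT and mm10. The tool that gave the counts, and its use of strand, are not given in the sources used here. RefSeq places another gene over 8 of the 10 members, protein-coding for 3 (Sycp3, Smc1b and Stag3), so their reads may not be told apart.

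Expected counts of 84289 transcripts were summed to 69572 genes, rounded and fitted with edgeR 4.0.16 (quasi-likelihood test, TMM, Benjamini-Hochberg over all genes tested) in R 4.3.3, with limma 3.58.1 and DESeq2 1.42.0 as alternatives. SE was worked back from the fold change and F. Control sperm 1, which the study leaves out, entered levels and sums but not the main tests. Labels do not tie replicates to mice, and p-values measure the spread between these samples. The paper describes its sperm pools as drawn from separate groups of mice, and calls its sperm and testes samples biological replicates. It does not describe the cadmium samples, for which the spread may be technical. Ratios of counts have exact binomial 95% intervals. Motifs and coordinates come from RefSeq (GRCm38.p6), with promoters for 9 of the 10 genes (not Spo11). Scripts were tested on simulated data. Named genes were the 10 members, 5 mitotic cohesin genes (a further counterpart is not reported here), up to 3 called genes per list with the largest fold, and the 5 of most like profile. The members and lists were chosen with earlier results of these data known.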

Additional observations from a re-analysis of the deposited data

Results flagged for a closer look

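In the 4 control sperm pools, 5 of the 12 sets of values examined had 1 pool far from the other three by Dixon's criterion. All but the Leydig set rest on a handful of counts in control sperm 2, the deepest pool, beside zeros. Where the other pools are at 0, any count meets the criterion. Its usual rate of about 1 set in 20 by chance therefore does not apply to those sets. Smc3 stood at 0.59 FPKM in control sperm 2 and at 0 in the other three pools, and as the only mitotic cohesin gene listed it put that list at 2.84 CPM (counts scaled to a library total of 1000000) there. Sertoli markers took 9.45 and leukocyte markers 2.84 CPM in control sperm 2, and 0 elsewhere. Leydig markers took 109 CPM in control sperm 3, against 0 to 16.1 in the other pools. The 10 meiotic genes stood at 0 in all 4 pools.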

How the results depend on the processing

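Between control sperm and control testes, 1 of the 10 genes was called. The number was 0 with library totals, without a filter and with the replicate block, 2 with a minimum of 10 counts, 3 with the tissue effect over both agents in 9 samples, 5 with that effect and no filter in 9 and in 10 samples, and 0 without any 1 of the 3 sperm libraries. Without either testes library none of the genes passed the filter, so that 0 was fixed. The number stayed at 1 under the other 5 alternatives with a value, and DESeq2 gave Sycp1 no adjusted p (unadjusted p = 0.0845). Calls over all genes numbered 5413 there, 2734 with library totals, 1347 without a filter, 968 without control sperm 4 and 1404 with the replicate block. For the other comparisons 0 of the 10 genes were called under every alternative run, but in cadmium against control sperm none of them was tested except without a filter. With each library left out in turn, log2 fold changes ran from -1.41 to 0.11 for Sycp3, from -0.72 to 0.34 for Smc1b and from -0.50 to 0.28 for Syce1 in cadmium against control testes, and from -0.93 to 0.90 for Sycp3 in cadmium sperm against testes. The replicate block turned Syce1 to 0.023 in testes. The labels do not say that replicate numbers pair samples (correlations of deviations 0.485, 0.093, -0.041 and -0.063 over 2 pairs each), and the block changed no other call of the 10 genes. In cadmium against control testes, where the correlation was 0.485, the block raised the calls over all genes from 5 higher and 1 lower to 52 and 37. There library totals gave 0 calls, and leaving out control testes 1, control testes 2 or cadmium testes 1 gave 27, 29 and 11. The causes were not tested. TMM moved the median log2 fold change of all genes from -1.11 to -1.24 in the control contrast and from -0.55 to -0.30 in the cadmium one. Depth limits what can be seen of these genes, with at most 14 counts of any in a library.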
